A study of Mus musculus with 15 samples.

Results

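A group of 5 transcripts took most of the sequencing reads in every sample of this study of mouse neurons after stroke, and they are described here one by one, as ratios to each other and by genotype. They are uc009vev.1, uc009vew.1, uc009vey.1, uc009vfb.1 and uc009vfc.1, 5 of the 63814 transcript identifiers in the count table, and they were chosen by their high share of counts over all samples. Their level is therefore a description, and every p-value below concerns a difference between genotypes. The identifiers have the form of UCSC known-gene identifiers. The table does not pair them with gene names, and 0 of the 63814 matched the name tables used here, so no gene, chromosome or genome of origin, sequence, length or function is given for any of them.

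Sarm1 encodes an enzyme that cleaves NAD and drives the breakdown of injured axons, and mice lacking it keep injured axons longer. Neurons were taken from the brains of male Sarm1 -/- mice and male C57BL/6 control mice (WT), all aged 3 to 6 months. All animals of both groups had a subcortical white matter stroke, made by focal injection of an agent that the labels call Lnio, and were studied 7 days later. Magnetic beads removed CD11b-positive cells, CD11b being a surface protein of microglia and other myeloid cells, and then retained cells positive for NCAM, an adhesion protein of neurons. There was no group without a stroke. The labels do not say whether animals were pooled. Neuron markers and Sarm1 itself were not analysed here because the identifiers carry no names.

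The table held 7 Sarm1 -/- and 8 WT libraries, with totals from 1129784 to 8635837 counts, each labelled as a biological replicate. Of the 105 pairs of libraries, 7 were near-identical, all within a genotype. Their chi-square statistic over its degrees of freedom was 1.39 to 1.78, against 216 to 1423 in all other pairs. Each such pair was summed and counted as 1 sample, and Sarm1 -/- replicate 3 stood alone. This left 4 samples per genotype, holding 2372026 to 16493691 counts each and named here by the replicate numbers of their libraries. Nothing in the labels says which animals the samples came from, so p-values measure the spread between these samples. In such sorted-cell samples, fewer cells and less RNA per cell cannot be told apart.

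A few RNA species can fill much of a sequencing library, and every other transcript is then counted from the reads that remain. The 5 transcripts together held 72.7% to 91.6% of the counts, a mean of 84.9% ± 8.74 for Sarm1 -/- and of 84.9% ± 8.05 for WT (SD, n = 4 each). They held 90.9%, 72.7%, 91.6% and 84.6% in Sarm1 -/- replicates 1 and 2, 3, 4 and 5, and 6 and 7. They held 72.9%, 89.9%, 87.8% and 89.1% in WT replicates 1 and 2, 3 and 4, 5 and 6, and 7 and 8. One sample of each genotype, Sarm1 -/- replicate 3 and WT replicates 1 and 2, thus lay near 73%, and the other 6 lay at 84.6% or above. Values below follow this same order of samples. Exact 95% binomial (Clopper-Pearson) intervals of the shares of single transcripts were 0.0119 to 0.124 percentage points wide. They cover counting error only.

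**Figure D1:**
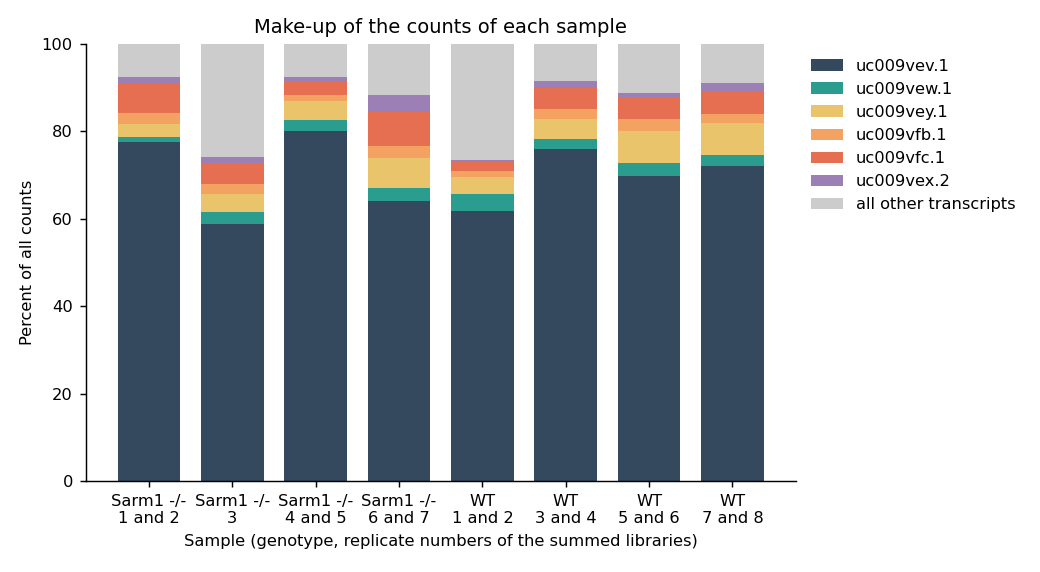
Stacked bars of the percentage of all counts (vertical axis, 0 to 100) held by each of the 5 transcripts, by uc009vex.2 and by all other transcripts, in each of the 8 samples (horizontal axis). Transcript uc009vev.1 fills 58.8% to 80.1% of every bar, and the part left to other transcripts is largest in Sarm1 -/- replicate 3 and WT replicates 1 and 2.

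Transcript uc009vev.1 ranked first in all 8 samples. It held 77.5%, 58.8%, 80.1% and 64.0% of counts across Sarm1 -/- samples, and 61.8%, 75.9%, 69.8% and 72.0% across WT samples. Sarm1 -/- samples held both the lowest and the highest value, so the WT range lay inside the Sarm1 -/- range. The means were 70.1% ± 10.3 and 69.9% ± 5.95 (SD, n = 4 each), a difference of 0.247 percentage points (two-sided exact permutation test, p = 1). The share of uc009vev.1 varied 1.36-fold between samples, less than that of any of the other 4, but a transcript at this share has little room to vary upwards.

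Transcript uc009vey.1 held 2.92%, 4.19%, 4.16% and 6.87% of counts across Sarm1 -/- samples, and 3.90%, 4.57%, 7.40% and 7.20% across WT samples. It was lowest in Sarm1 -/- replicates 1 and 2 and highest in WT replicates 5 and 6, and the groups overlapped. The means were 4.54% ± 1.67 and 5.76% ± 1.79 (SD, n = 4 each), a difference of -1.23 percentage points (two-sided exact permutation test, p = 0.229).

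Transcript uc009vfc.1 held 6.64%, 4.74%, 3.28% and 7.89% of counts across Sarm1 -/- samples, and 1.95%, 4.68%, 4.97% and 5.15% across WT samples. WT replicates 1 and 2 lay far below the other 3 WT samples, which lay close together. Sarm1 -/- replicate 3 lay within that WT cluster, and the other Sarm1 -/- samples lay on both sides of it. Its share varied 4.05-fold, the most of the 5. The means were 5.64% ± 2.04 and 4.19% ± 1.50 (SD, n = 4 each), a difference of 1.45 percentage points (two-sided exact permutation test, p = 0.314).

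Transcript uc009vew.1 held 1.24%, 2.77%, 2.63% and 3.02% of counts across Sarm1 -/- samples, and 3.85%, 2.44%, 2.96% and 2.61% across WT samples. Sarm1 -/- replicates 1 and 2 were lowest and WT replicates 1 and 2 were highest, while the other 6 samples were mixed. The means were 2.41% ± 0.797 and 2.97% ± 0.630 (SD, n = 4 each), a difference of -0.550 percentage points (two-sided exact permutation test, p = 0.457). It was highest in the WT sample in which uc009vfc.1 was lowest.

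Transcript uc009vfb.1 held 2.59%, 2.20%, 1.44% and 2.77% of counts across Sarm1 -/- samples, and 1.47%, 2.34%, 2.69% and 2.17% across WT samples. Each genotype had 1 sample near 1.4% to 1.5% and 3 samples above 2.1%. The means were 2.25% ± 0.594 and 2.17% ± 0.513 (SD, n = 4 each), a difference of 0.0805 percentage points (two-sided exact permutation test, p = 0.857).

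**Figure D2:**
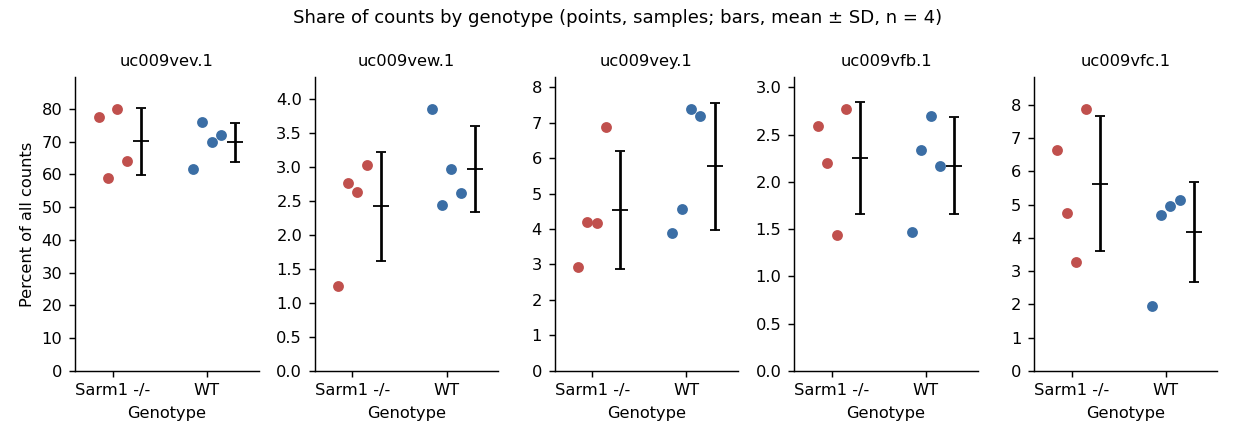
Percentage of all counts (vertical axis, from 0, a separate scale per panel) of each of the 5 transcripts by genotype, with a point per sample and the mean ± SD (n = 4) beside it. The genotypes overlap in all 5 panels.

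The order of the 5 by counts was not the same in every sample. Transcripts uc009vey.1 and uc009vfc.1 each exceeded the other in 4 of 8 samples, so they cannot be ordered. Transcript uc009vfc.1 exceeded uc009vew.1 in 7 of 8 samples, WT replicates 1 and 2 being the exception. Transcript uc009vew.1 exceeded uc009vfb.1 in 7 of 8, Sarm1 -/- replicates 1 and 2 being the exception. These are orders of read counts that were not divided by transcript length, so they are not orders of RNA molecules.

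All 5 shares overlapped between the genotypes. Groups did not overlap in 1.68% of the 1728 transcripts that passed the low-count filter, on the same scale. In a model fitted across those 1728 transcripts with edgeR's quasi-likelihood test, 0 of the 5 passed a false discovery rate of 0.05, as did 0 of all 1728 (0%). At an unadjusted p under 0.05 there were 0 of the 5 and 338 of the 1728 (19.6%). DESeq2, with its own filter on low counts, called 168 of 1235 transcripts with an adjusted p (13.6%) and 0 of the 5. With quality weights, limma-voom called 25 of the 1728 (1.45%) and 0 of the 5. The log2 fold changes, Sarm1 -/- over WT on TMM-scaled counts, ran from -0.63 (SE 1.00; adjusted p = 0.746 by edgeR) for uc009vey.1 to -0.09 (SE 0.63; adjusted p = 0.949 by edgeR) for uc009vev.1. Those of uc009vfb.1, uc009vew.1 and uc009vfc.1 lay between, at -0.41 (SE 1.14), -0.37 (SE 1.11) and -0.10 (SE 1.00). With library sizes taken from the counts outside the 5, uc009vev.1 had a log2 fold change of 0.14 and uc009vfc.1 one of 0.22. Taking library sizes from those counts also moved the median log2 fold change of all 1728 transcripts from 0.12 to 0.50. With limma-voom the sign turned for uc009vev.1, uc009vey.1, uc009vfb.1 and uc009vfc.1. For uc009vew.1 it turned with upper quartile scaling, to 0.011, so no direction is given for any of the 5. For each of the 5, a change of 2-fold was less than 2 SE in the TMM-scaled edgeR fit. The SE depended on the scaling. For uc009vev.1 it was 0.19 with total-count scaling, 0.48 with library sizes from the counts outside the 5 and 1.31 with upper quartile scaling.

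Ratios between these transcripts within a sample need no scaling between samples, and transcript length cancels when a ratio is compared across samples. In the near-identical libraries, the log2 ratios of the 10 pairs of transcripts differed by at most 0.0443 between the libraries of a pair. The SD between libraries of a pair was 0.0066 to 0.018 on the log2 scale. The labels do not say whether the libraries of a pair were prepared separately or are repeat runs of 1 library, so this SD may hold sequencing noise alone. Between the 8 samples the SD was 0.34 to 0.96.

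For uc009vev.1 and uc009vey.1, the near-identical libraries of a pair differed slightly in the same way each time. The library with the higher replicate number, which held 0.889 to 0.911 of the total of the other, had a lower share of uc009vev.1 in 7 of 7 pairs, by 0.0978 to 0.231 percentage points. It had a higher share of uc009vey.1 in 7 of 7 pairs, by 0.0255 to 0.144 points. The others of the 5 were less regular. Its share was higher in 4 pairs and lower in 3 for uc009vew.1, in 5 and 2 for uc009vfb.1, and in 6 and 1 for uc009vfc.1. Pooled over the 7 pairs, the share in the second library over that in the first was 0.997 for uc009vev.1 (exact 95% counting interval, 0.997 to 0.998) and 1.01 for uc009vey.1 (1.01 to 1.02). Both lay within the 5th to 95th percentiles, 0.927 to 1.10, of 816 other transcripts with at least 1000 counts over the 7 pairs. The median of those transcripts was 1.01, and 341 of them lay under 1. How many of them moved the same way in all 7 pairs was not counted.

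The rare rows of the run differed more. The same quotient was 1.15 for uc009vez.1 (exact 95% counting interval, 1.10 to 1.21; higher in 6 of 7 pairs) and 1.11 for uc009vfa.1 (1.06 to 1.16; higher in 7 of 7 pairs). Over 816 other transcripts with at least 1000 counts in the 14 paired libraries, its median was 1.01, and 32 of them (3.92%) exceeded the value of uc009vfa.1. For uc009vex.2 it was 1.00 (0.997 to 1.00). These values were looked at after seeing the data and carry no test.

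**Figure D3:**
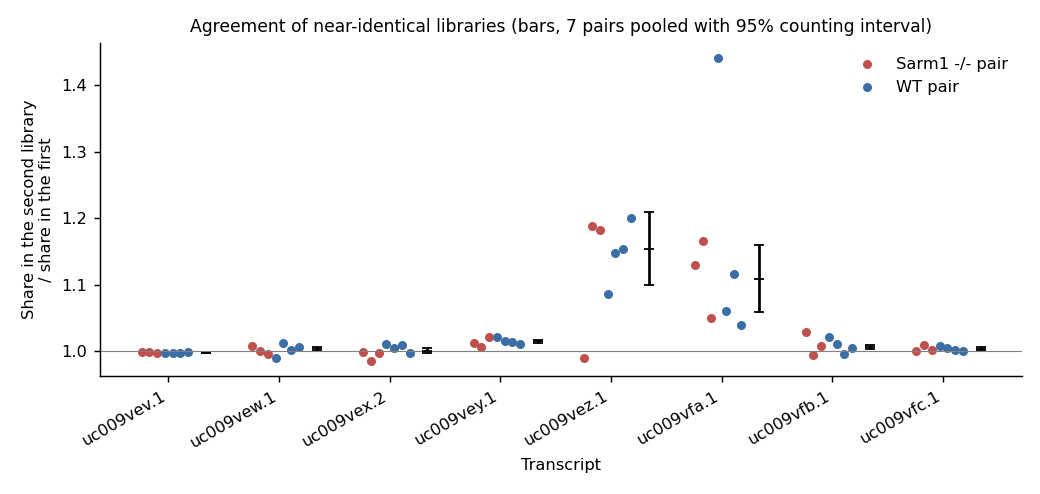
The share of counts in the second library divided by that in the first (vertical axis) for each row of the run (horizontal axis), with a point per pair coloured by genotype and the 7 pairs pooled with their 95% counting interval beside them. The points of uc009vev.1 all lie just below 1, and those of uc009vez.1 and uc009vfa.1 lie mostly above 1.04.

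The ratio that varied most was that of uc009vew.1 to uc009vfc.1, with a 10.5-fold range. It was 0.187, 0.584, 0.801 and 0.383 across Sarm1 -/- samples and 1.97, 0.521, 0.596 and 0.507 across WT samples. WT replicates 1 and 2 were the only sample with more counts of uc009vew.1 than of uc009vfc.1. On the log2 scale the means were -1.22 ± 0.91 and -0.42 ± 0.94 (SD, n = 4 each), and the groups overlapped (two-sided exact permutation test, p = 0.343, adjusted p = 0.686 over the 10 ratios). The sample of WT replicates 1 and 2 was the highest or lowest of the 8 in 7 of the 10 ratios, and that of Sarm1 -/- replicates 1 and 2 in 6. The 10 ratios share the counts of the same 5 transcripts, so these extremes are not independent.

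The ratio that varied least was that of uc009vfb.1 to uc009vfc.1, with a 2.15-fold range. It was 0.390, 0.464, 0.438 and 0.351 across Sarm1 -/- samples and 0.755, 0.500, 0.542 and 0.422 across WT samples. Only 1 WT sample, replicates 7 and 8, lay within the Sarm1 -/- range. The log2 means were -1.29 ± 0.18 and -0.88 ± 0.35 (SD, n = 4 each), a difference of -0.41 (two-sided exact permutation test, p = 0.0857, adjusted p = 0.429 over the 10 ratios). Without WT replicates 1 and 2 that difference was -0.25, and its p was 0.171 by the exact test. Without WT replicates 7 and 8 it was -0.53, with an exact permutation p of 0.0571, the smallest that 3 samples against 4 can give. Leaving out any 1 sample gave differences from -0.53 to -0.25.

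The smallest p among the 10 ratios was that of uc009vey.1 to uc009vfc.1. This ratio was 0.440, 0.885, 1.27 and 0.871 across Sarm1 -/- samples and 2.00, 0.975, 1.49 and 1.40 across WT samples. Sarm1 -/- replicates 4 and 5 overlapped with WT replicates 3 and 4, and the other samples were apart by genotype. The log2 means were -0.30 ± 0.64 and 0.50 ± 0.43 (SD, n = 4 each), a difference of -0.81 (two-sided exact permutation test, p = 0.0571, adjusted p = 0.429 over the 10 ratios). The smallest p that 4 samples against 4 can give is 0.0286. Without Sarm1 -/- replicates 1 and 2 the difference was -0.52, with an exact permutation p of 0.114, where 3 samples against 4 cannot go below 0.0571. It was -1.03 without Sarm1 -/- replicates 4 and 5 and -0.99 without WT replicates 3 and 4, the samples that overlapped. Both of these omissions gave an exact permutation p of 0.0571. Leaving out any 1 sample gave differences from -1.03 to -0.52. With the 15 libraries counted as separate replicates the p was 0.0087 for this ratio and 0.0040 for uc009vfb.1 to uc009vfc.1 by exact permutation, but that count enters 7 samples 2 times each.

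**Figure D4:**
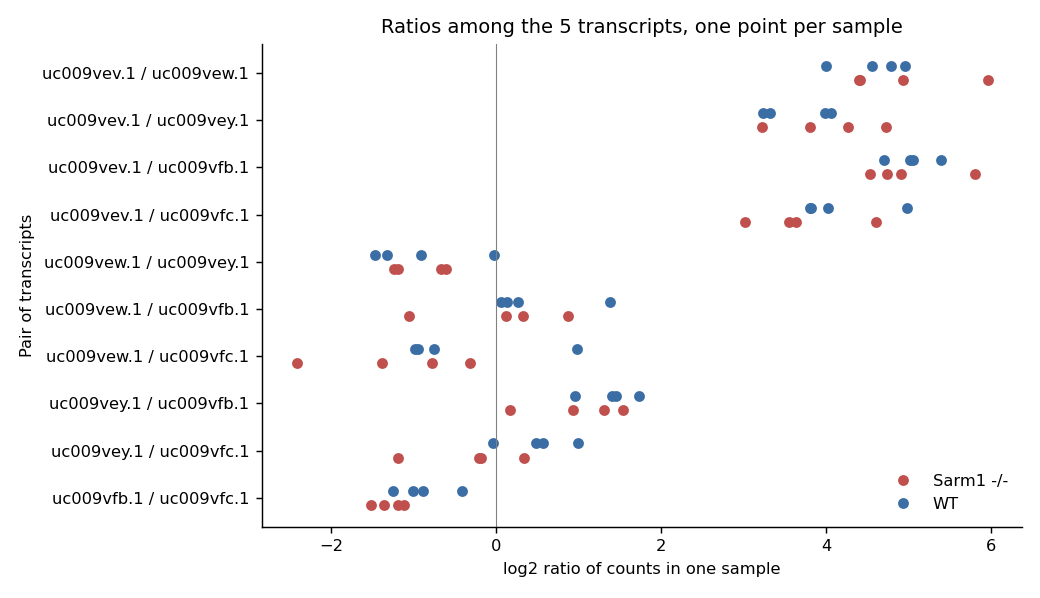
The log2 ratio of counts (horizontal axis) for each of the 10 pairs of the 5 transcripts (vertical axis), with a point per sample, coloured by genotype. All 10 pairs overlap between genotypes, and the widest range is that of uc009vew.1 to uc009vfc.1.

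The other 7 ratios also overlapped between genotypes, with p from 0.286 to 1 by the exact permutation test. Transcript uc009vev.1 had 16.0 to 62.3 times the counts of uc009vew.1, 9.31 to 26.6 times those of uc009vey.1, 23.1 to 55.8 times those of uc009vfb.1 and 8.11 to 31.7 times those of uc009vfc.1. The sum of the 4 smaller transcripts was 14.4 counts per 100 of uc009vev.1 in Sarm1 -/- replicates 4 and 5 and 32.1 in Sarm1 -/- replicates 6 and 7. The WT samples lay between these values, at 18.1 to 25.8.

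Although they differed between samples, the ratios among the 5 had a smaller median spread than those among transcripts outside their run of rows. The SD of the log2 ratio over the 8 samples had a median of 0.56 over the 10 pairs. Over the 28 pairs of all 8 consecutive rows of the run, uc009vev.1 to uc009vfc.1, its median was 0.59 and its range 0.34 to 1.05. A small spread was thus not particular to the 5. Over the 26565 pairs of 231 transcripts outside those 8 rows, with at least 20 counts in each sample, the SD had a median of 2.78. Its range there was 0.28 to 6.24. Only 8 transcripts outside the run had 1000 or more counts in every sample, and their 28 pairs had a median of 1.76 and a range of 0.73 to 3.83. Leaving out any 1 sample gave medians of 0.44 to 0.60 for the 5 transcripts and 2.67 to 2.85 for the 231. This comparison is a description without a test, because pairs share transcripts and samples. The 5 were also chosen for a high share of counts over all samples, while the 231 needed only 20 counts in each. The part of that choice in the smaller spread was not tested.

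**Figure D5:**
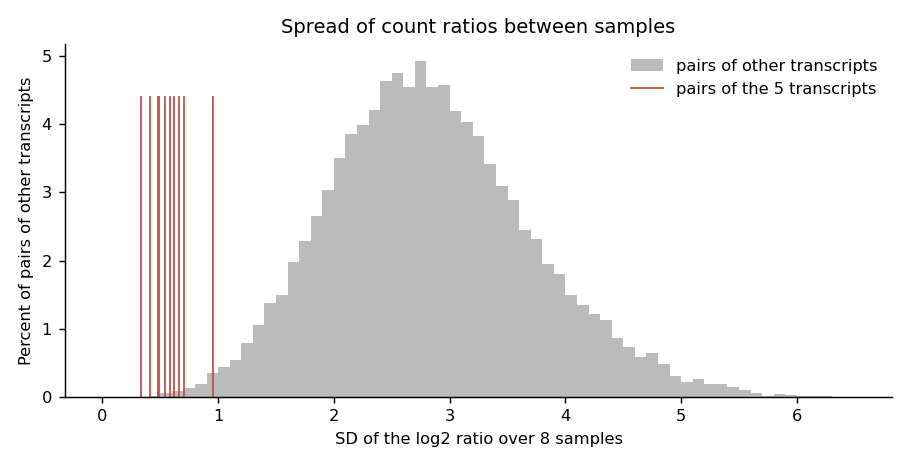
Histogram of the SD over 8 samples of the log2 ratio between transcripts (horizontal axis), as a percentage of pairs (vertical axis). It holds the 26565 pairs of transcripts outside the rows uc009vev.1 to uc009vfc.1, with a vertical line for each of the 10 pairs of the 5 transcripts. The lines lie between 0.34 and 0.96, below the histogram's median of 2.78.

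Relative to the counts outside the 5, 4 of the 5 transcripts were lowest in the same 2 samples. Transcript uc009vev.1 had 8.49, 2.16, 9.54 and 4.14 counts per count outside the 5 across Sarm1 -/- samples and 2.28, 7.52, 5.71 and 6.63 across WT samples. Sarm1 -/- replicate 3 and WT replicates 1 and 2 were lowest, as they were for uc009vey.1, uc009vfb.1 and uc009vfc.1. The exception was uc009vew.1, with 0.136, 0.101, 0.313 and 0.196 across Sarm1 -/- samples and 0.142, 0.242, 0.242 and 0.240 across WT samples. Its 2 lowest samples were Sarm1 -/- replicate 3 and Sarm1 -/- replicates 1 and 2.

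On this scale the 5 values of a sample share a denominator, which alone can make them move together. The correlations are therefore given as descriptions over 8 samples, with no p. For uc009vfb.1 and uc009vfc.1 Pearson's r was 0.970 and Spearman's rho 0.786, and r was 0.712 without the 2 samples farthest from the median of uc009vfb.1. As shares of total counts this pair had r = 0.876. For uc009vew.1 and uc009vey.1 r was 0.850 and rho 0.762, and r was 0.818 without such samples, but it was 0.331 as shares of total counts. Transcript uc009vey.1 had r = 0.827 with uc009vfb.1 and 0.786 with uc009vfc.1, which turned to -0.536 and -0.770 without the 2 farthest samples. The correlations of uc009vev.1 with the other 4 were 0.715 to 0.876, and -0.249 to 0.279 without the 2 samples farthest from its median. Both sets thus rest on the samples left out. Those of uc009vew.1 with uc009vfb.1 and uc009vfc.1 were 0.534 and 0.454, and 0.784 and 0.756 without such samples.

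Depth was set beside the shares, again as a description over 8 samples. The share of the 5 together and the log10 of total counts had r = 0.754 and rho = 0.571, and r was 0.595 once the 2 samples of most extreme depth were dropped. The total is itself mostly made of the 5 transcripts. With the counts outside the 5 as depth, r was 0.035. WT replicates 1 and 2, next lowest in share, had the lowest total. Sarm1 -/- replicate 3, with the lowest share, had 6316261 counts, close to the 6503149 of Sarm1 -/- replicates 1 and 2, whose share was 90.9%. Among the 5 single transcripts r with the total ran from -0.329 to 0.574. The part of depth in the differences between samples was not tested.

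The 5 transcripts stand in a run of 8 consecutive rows, uc009vev.1 to uc009vfc.1. The rows before and after the run, uc009veu.1 and uc009vfe.2, had 0 counts in all libraries. The run's other members were uc009vex.2, uc009vez.1 and uc009vfa.1. Transcript uc009vex.2 came next after the 5 in mean share, with 1.46%, 1.45%, 0.752% and 3.83% across Sarm1 -/- samples and 0.562%, 1.56%, 1.05% and 1.84% across WT samples. It varied 6.81-fold, more than any of the 5, with Sarm1 -/- replicates 6 and 7 highest and WT replicates 1 and 2 lowest. The means overlapped within their spread, at 1.87% ± 1.35 and 1.25% ± 0.564 (SD, n = 4 each; two-sided exact permutation test, p = 0.543). Transcripts uc009vez.1 and uc009vfa.1 were rare, with 163 to 2033 and 104 to 2097 counts per sample. None of the 8 rows passed the edgeR test in either direction.

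The rare rows of the run were among those most like uc009vev.1. Among the 238 other transcripts with at least 20 counts in every sample, likeness was measured as a small SD of the log2 ratio over the 8 samples. Transcript uc009vez.1 ranked 2 in likeness to uc009vev.1, with an SD of 0.35, and uc009vfa.1 ranked 5, with 0.53. Of the 7 other rows of the run, 6 were among the 10 most like uc009vev.1, and likewise 6 for uc009vey.1, uc009vfb.1 and uc009vfc.1 and 5 for uc009vew.1. Transcript uc009vex.2 was most like uc009vfc.1 among those outside the 5, with an SD of 0.41, and ranked 13 in likeness to uc009vev.1, with 0.87.

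Some transcripts outside the run were as close. The one most like uc009vev.1 was uc012eno.1, with an SD of 0.30. It had 0.192, 0.210, 0.204 and 0.191 counts per 1000 of uc009vev.1 across Sarm1 -/- samples and 0.128, 0.136, 0.211 and 0.146 across WT samples. WT replicates 5 and 6 were the highest of the 8, and the other 3 WT samples were below all Sarm1 -/- samples. It rested on 188 to 2508 counts per sample, and was also among the 3 nearest outside the 5 for uc009vfb.1 (SD 0.44) and uc009vfc.1 (SD 0.55). Transcript uc007ams.1 was among the 3 nearest for uc009vev.1 (SD 0.45), uc009vey.1 (SD 0.51) and uc009vew.1 (SD 0.53). Transcript uc012hdk.1, with 31 to 531 counts, was nearest to uc009vey.1, with an SD of 0.39, and uc029sug.1 and uc033jng.1 followed uc007ams.1 for uc009vew.1, at 0.56 and 0.59.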

How the data were processed

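Total RNA was sequenced from sorted neurons of 15 labelled replicates, with NuGEN Ovation Ultralow and KAPA HyperPrep libraries per the labels' protocols. The authors deposited whole-number read counts per transcript, not normalised, judged from the file's values. FastQC, STAR, HTSeq, DESeq2 and the build mm10 are named in the submitters' processing notes. Annotation, strand setting and treatment of multi-mapped or overlapping reads: not given in the sources used here. Columns of no sample numbered 0.

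The 5 transcripts and all lists were chosen with earlier results of these data known. Libraries with a chi-square statistic under 3 times its degrees of freedom were summed (transcripts with 20 or more counts in the pair were used). Counts were scaled by TMM, filtered by filterByExpr and tested with edgeR 4.0.16 (R 4.3.3, two-sided, Benjamini-Hochberg over 1728 transcripts). SE was the absolute log2 fold change over the square root of F. The fit was tested on simulated data. Shares and ratios were compared by two-sided exact permutation tests. An adjustment over the shares and a p for their sum were planned but are not given, because the transcripts were chosen from these data. Planned p-values of correlations are not given either, since the values compared share a denominator. Named transcripts are the 5, their run, the next by mean share, and, per transcript, the 3 most alike outside the 5 with 20 counts in every sample. Alternatives were other scalings and filters, DESeq2 1.42.0, limma-voom (limma 3.58.1), 15 separate libraries, the replicate block, the first library of each pair, other denominators and leaving out each sample. Those on deeper transcripts and on the spread without each sample were chosen after seeing the data. Other calculations used scipy 1.17.1, pandas 2.3.3 and numpy 2.4.6 under Python 3.11.15.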

Additional observations from a re-analysis of the deposited data

Results flagged for a closer look

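Of 32 groups of 4 values (shares and log2 ratios of the 5 transcripts, by genotype), 4 had a single sample well apart from the rest. By chance about 5% of groups do. All 4 were the same sample, WT replicates 1 and 2, so the 4 are not independent. It was also the sample with the lowest total count. Its share of uc009vfc.1 was 1.95%, where the next WT sample had 4.68%. Its share of the 5 together was 72.9%, where the next WT sample had 87.8%. Its log2 ratio of uc009vew.1 to uc009vfb.1 was 1.39, where the next was 0.27. Its log2 ratio of uc009vew.1 to uc009vfc.1 was 0.98, where the next was -0.75.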

How the results depend on the processing

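No share or ratio of the 5 transcripts passed its test in the 8 samples. With any 1 sample left out none could pass, because 3 against 4 samples cannot go below an exact p of 0.0571. The ratio of uc009vey.1 to uc009vfc.1 reached that floor without Sarm1 -/- replicates 4 and 5 and without WT replicates 3 and 4. That of uc009vfb.1 to uc009vfc.1 reached it without WT replicates 7 and 8, and that of uc009vev.1 to uc009vfc.1 without Sarm1 -/- replicates 4 and 5. The edgeR fit called 0 of 1728, and also 0 without each sample, where the filter left 1797 to 2379 transcripts to test. Total-count scaling called 3 of 1728 (uc007ydc.1, uc008isn.1 and uc008zqs.1, named after their values were seen) and limma-voom 25 of 1728. Other sets of transcripts were tested by DESeq2, which called 168 of 1235 with an adjusted p, and with 15 libraries, where 301 of 1175 were called. None of the 5 was called in any of the 20 fits, with adjusted p from 0.464 to 0.999 by edgeR, DESeq2 or limma-voom. The replicate block gave 1 call (uc008pne.2) among 1175 in the 15 libraries. Pairing by replicate number was looked at in the 15 libraries only. Deviations of same-numbered libraries correlated at -0.0192 to 0.162, and 1 of 7 libraries correlated best with its own number. Because near-identical libraries carry different numbers, this cannot decide whether the samples are paired.

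Fitted log2 fold changes of the 5 changed sign, the cause not being tested. For uc009vev.1 they were 0.38 with upper quartile scaling, 0.14 with library sizes outside the 5, 0.0051 with total counts, 0.79 with limma-voom, 0.23 with 15 libraries, 0.18 with the replicate block and 0.039 with first libraries. For uc009vfc.1 they were 0.36, 0.22, 0.43, 1.15, 0.24, 0.52 and 0.17 in that order. For uc009vfb.1 they were 0.049 with upper quartile scaling, 0.053 with total counts, 0.62 with limma-voom and 0.095 with the replicate block. For uc009vew.1 it was 0.011 with upper quartile scaling, and for uc009vey.1 0.32 with limma-voom. Leaving out each sample gave -1.02 to 0.41 for uc009vev.1, -1.46 to 0.096 for uc009vew.1, -0.88 to 0.11 for uc009vfb.1 and -0.51 to 0.43 for uc009vfc.1. It gave -1.53 to -0.17 for uc009vey.1, without a change of sign, with adjusted p from 0.466 to 0.922 by edgeR.

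Leaving out each sample moved the share difference from -3.08 to 4.00 percentage points for uc009vev.1 and from -0.152 to 0.352 for uc009vfb.1. It moved the log2 ratio difference from -0.31 to 0.11 for uc009vev.1 to uc009vfb.1 and from -0.17 to 0.31 for uc009vew.1 to uc009vey.1, which was -0.039 with 15 libraries. With shares of total counts, correlations of uc009vev.1 with uc009vew.1, uc009vey.1 and uc009vfb.1 turned to -0.644, -0.168 and -0.0548, and those of uc009vew.1 with uc009vfb.1 and uc009vfc.1 to -0.410 and -0.516, the cause not being tested. With counts outside the 5 as depth, r with the share became -0.187 for uc009vev.1, 0.227 for uc009vew.1 and 0.035 for the 5 together.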
